A study of Homo sapiens with 9 samples.

Results

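The library labelled shEMPTY replicate 2 was the only 1 of 9 U937 libraries in which IFNB1, the gene of interferon beta, was detected above the negative control beads (detection p under 0.01). It was selected on that value and described against the other 8 libraries, gene by gene, by its difference from their mean and by whether it lay outside their range. ISG15, IFIT1, IFIT2, IFI27, IFIT3 and OAS2 were each more than 4 log2 units higher in it on the probe used for the gene. DEK, the transcript targeted in the study, was lower in it than in any other library. Because 1 library stands on this side, all differences are descriptions of that library, without a p-value, and the genes that chose it (IFNB1, with CXCL10, IFIT1 and ISG15 as markers) support nothing by being high.

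U937 is an established human myeloid cell line that grew out of a histiocytic lymphoma. All cells were transduced with H1-promoter lentiviral vectors, sorted for GFP after 48 h and expanded for 4 days before RNA isolation. The 3 groups were cells with the empty vector (shEMPTY), and cells with either of 2 hairpins against DEK, shDEK14 and shDEK17, with 3 Illumina HumanHT-12 v4 arrays each. The sorted cells were bulk populations of transduced cells, the labels do not say whether arrays came from separate transductions, and a moderate signal in all cells cannot be told apart from a strong signal in some of them.

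The labels did not follow the target. DEK had a raw intensity of 293.9 here, against 2510 and 2580 for shEMPTY replicates 1 and 3. Raw DEK was also below 1000 in the libraries labelled shDEK14 replicate 2 (359.4), shDEK17 replicate 1 (431.6) and shDEK17 replicate 3 (532.0), and these 3 libraries were used for a second comparison. It lay between 1890 and 2826 in the remaining 3 libraries labelled with a hairpin. The library labelled shEMPTY replicate 2 therefore carried a control label with the DEK level of the low-DEK libraries, and it is called by its label throughout.

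Interferon beta and the alpha interferons are secreted when sensors in the cytosol or endosome meet viral or other foreign nucleic acid. They bind the receptor IFNAR, whose kinases JAK1 and TYK2 activate a transcription factor complex. This complex contains IRF9 and binds interferon-stimulated response elements, short repeats of GAAA, in the promoters of many antiviral genes. NF-kB and IRF factors act further upstream, at the IFNB1 promoter itself. Myeloid cells are efficient producers of and responders to type I interferon, and U937 cells are a common model of the response.

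To show these elements, the sequences just before the RefSeq start sites (GRCh38.p14, each on the strand of its gene, 5′ to 3′) are printed for IFNB1, the 3 other marker genes, and IFI27 and IFI6, which were among the genes with the largest differences. Capitals mark matches to GAAANNGAAA on either strand, read as TTTCNNTTTC when on the other strand, or to the NF-kB consensus in IFNB1 and CXCL10. No match of one kind overlapped a match of the other, but the 2 matches of ISG15 overlap each other.
IFNB1 (chr9:21077943-21078092, minus strand): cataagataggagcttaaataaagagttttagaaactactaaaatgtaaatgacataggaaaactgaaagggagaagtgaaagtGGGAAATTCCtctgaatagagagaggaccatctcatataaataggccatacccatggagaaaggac
CXCL10 (chr4:76023498-76023737, minus strand): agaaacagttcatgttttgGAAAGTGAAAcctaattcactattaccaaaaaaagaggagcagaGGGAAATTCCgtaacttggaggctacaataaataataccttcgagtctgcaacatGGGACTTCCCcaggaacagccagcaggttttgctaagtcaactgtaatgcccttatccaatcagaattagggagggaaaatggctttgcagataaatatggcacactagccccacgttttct
IFIT1 (chr10:89392473-89392622, plus strand): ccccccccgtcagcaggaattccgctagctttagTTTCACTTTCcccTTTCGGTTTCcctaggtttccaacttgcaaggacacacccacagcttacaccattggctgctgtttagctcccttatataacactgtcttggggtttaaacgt
ISG15 (chr1:1013347-1013496, plus strand): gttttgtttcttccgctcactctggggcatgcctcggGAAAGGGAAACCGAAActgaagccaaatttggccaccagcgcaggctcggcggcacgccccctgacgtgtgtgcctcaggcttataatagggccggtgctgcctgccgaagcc
IFI27 (chr14:94110586-94110735, plus strand): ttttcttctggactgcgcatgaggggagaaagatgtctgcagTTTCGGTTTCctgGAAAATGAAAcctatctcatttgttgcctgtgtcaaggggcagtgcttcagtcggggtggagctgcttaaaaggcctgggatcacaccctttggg
IFI6 (chr1:27672193-27672372, minus strand): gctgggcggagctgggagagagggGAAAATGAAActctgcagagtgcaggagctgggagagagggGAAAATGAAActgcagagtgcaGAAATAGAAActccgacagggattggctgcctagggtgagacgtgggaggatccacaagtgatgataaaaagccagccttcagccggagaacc

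IFIT1, ISG15 and IFI27 each held 2 GAAANNGAAA matches and IFI6 held 3. The IFNB1 stretch held none and had its NF-kB match beginning at base -66 before the start site. The stretches were 150 bases long, except 240 for CXCL10 and 180 for IFI6, where 1 match begins at -156. The printed genes are examples, and IFIT3, OAS3 and IFITM1, with larger differences than IFI6, are not shown. CXCL10 held 1 GAAANNGAAA match at -221 and NF-kB matches at -177 and -122, the last of which reads as a match on both strands. In the 250 bases before the start, 24 of the 54 genes called higher (defined below) that had a promoter in the RefSeq table held GAAANNGAAA on either strand, or 44.4%, against 3.07% of all 27305 promoters there. At least 2 matches were found in 20.4% of these genes and 0.227% of all promoters. The NF-kB consensus was found in 16.7% of these genes and 9.57% of all promoters. These are counts of letters in a window and do not show binding.

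The marker genes separated the library labelled shEMPTY replicate 2 from all others. IFNB1 had a log2 scaled intensity of 7.98 in it, against 6.34, 6.48 and 6.62 (lowest, median and highest) in the other 8 libraries, none of which detected it. CXCL10, the chemokine that attracts activated T cells through CXCR3, was 9.63, against 6.64, 6.85 and 7.07 in the other 8, again with no detection there. IFIT1, which binds viral RNA lacking 2′-O-methylation at the cap, was 12.22, against 7.13, 7.48 and 7.70. ISG15, a ubiquitin-like protein that is conjugated to other proteins, was 13.39, against 8.31, 8.41 and 8.86. For none of the 4 genes did the library come near the range of the others, which spanned less than 0.6 log2 units in each case. The differences from the mean of the other 8 were 1.504 for IFNB1, 2.80 for CXCL10, 4.75 for IFIT1 and 4.89 for ISG15.

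Where no other library detected a gene, its difference is only a bound, taken, array by array, against the dimmest detected probe or the measured value of the gene, whichever was brighter. So measured, CXCL10 was at least 5.44-fold higher and IFNB1 at least 1.74-fold higher. Intensities were not background-subtracted, which compresses differences at low signal. After background correction and quantile normalization (neqc), the differences were 2.74 for IFNB1, 4.44 for CXCL10, 5.75 for IFIT1 and 5.35 for ISG15.

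**Figure D1:**
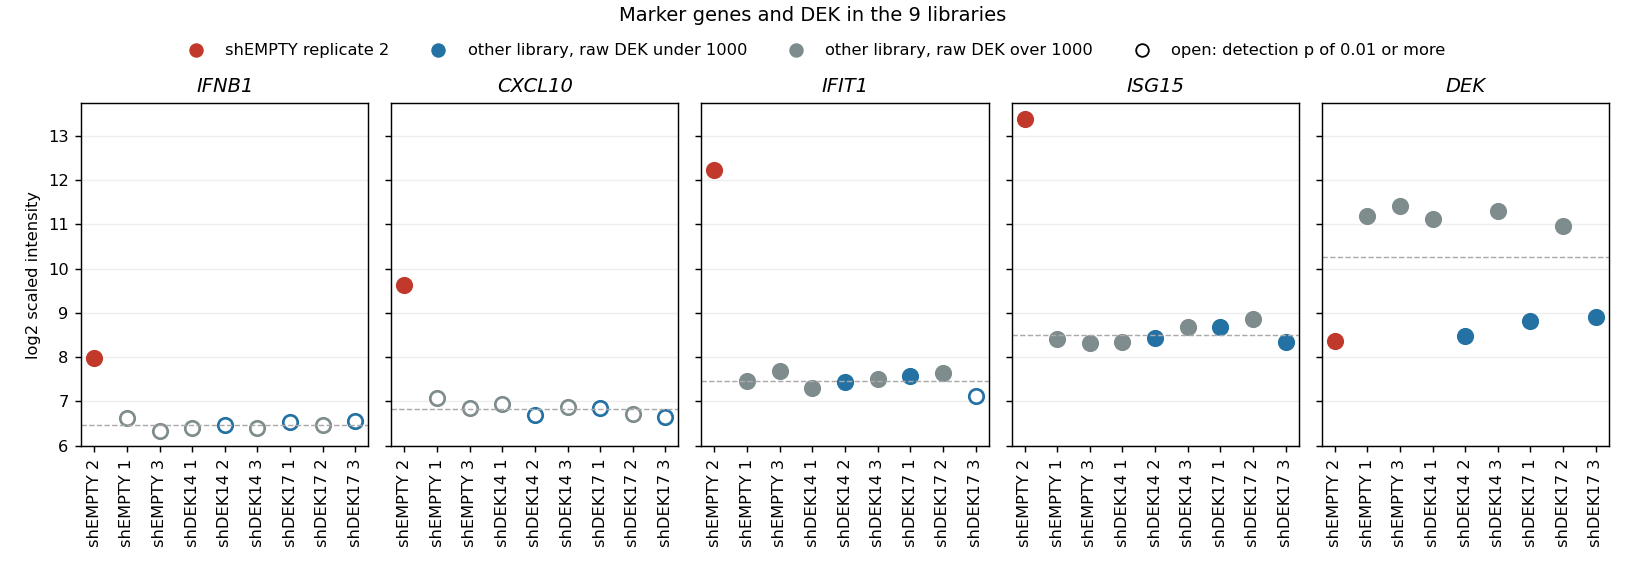
Log2 scaled intensity of IFNB1, CXCL10, IFIT1, ISG15 and DEK in each of the 9 libraries (1 point each, open where the detection p was 0.01 or more, dashed line at the mean of the other 8). The library labelled shEMPTY replicate 2, at the left of each panel, lies above the other 8 for the 4 marker genes and below them for DEK, where it stands beside the 3 other libraries with raw DEK under 1000.

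Across all 20046 named genes, each represented by 1 probe, 67 were called higher in the library labelled shEMPTY replicate 2, that is above all 8 other libraries and at least 1 log2 unit above their mean, which is 0.334% of genes. Only 2 genes, DEK and CERK, were called lower by the same rule (0.00998%). Of the 67 genes, 28 were at least 4-fold and 6 at least 16-fold higher, and the median difference was 1.84, against 0.05 over all genes. The 67 include the 4 marker genes. All 67 were detected in this library, 38 were detected in all 8 others, 18 in some and 11 in none. Of those 11, bounds exceeded 2-fold for 8 genes. Of the 9633 genes that at least 1 other library detected, 56 were called higher (0.581%). Over all 30113 probes with 1 gene symbol, 91 were higher (0.302%) and 2 lower (0.00664%).

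The same rule gave far fewer genes in the other libraries. When each of the other 8 was compared by the same rule with the 8 libraries besides itself (the library labelled shEMPTY replicate 2 included), between 0 and 11 genes were higher and between 0 and 10 lower. Without a limit on size, 3601 genes (18.0%) lay above all 8 others in the library labelled shEMPTY replicate 2 and 1231 (6.14%) below. Part of that shift was general, since the median difference was 0.05 over the 10216 genes detected in no library and 0.03 over the 7111 detected in all 9. The library labelled shEMPTY replicate 2 had the lowest mean raw intensity (362.2, against up to 457.2) and the most detected probes (14152, against 12729 to 14091 in the others). With arrays scaled to equal medians instead, 64 genes were higher, all of them among the 67. Over 7033 genes detected in all libraries and outside the interferon-related lists, the SD of its differences was 0.21, within the 0.19 to 0.26 of the other 8 libraries.

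**Figure D2:**
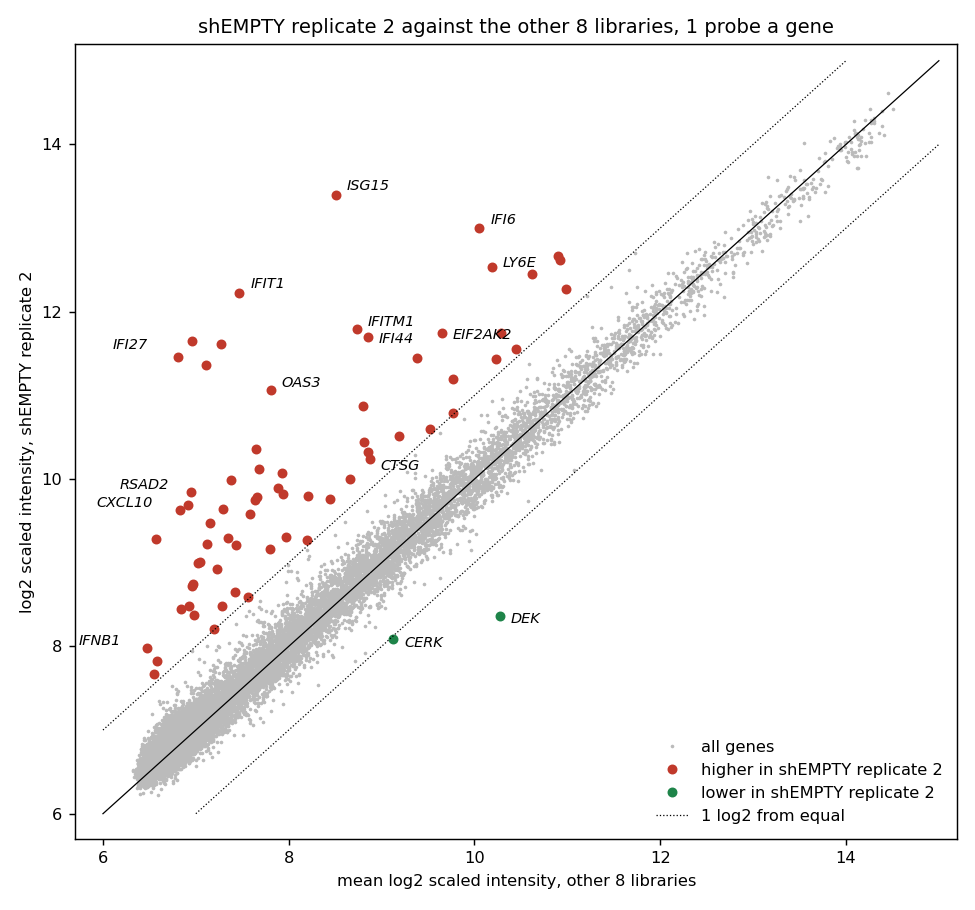
Log2 scaled intensity of 20046 genes in the library labelled shEMPTY replicate 2 (vertical) against the mean of the other 8 libraries (horizontal), with dotted lines 1 log2 unit from equality. The 67 genes called higher (red) have means in the other 8 libraries from 6.47 (IFNB1) to 10.99 (LAP3), and DEK and CERK (green) are the 2 called lower.

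The antiviral effector genes made up the largest block. Of 43 genes in that list 42 were measured, and 40 of them lay above all 8 other libraries (95.2%, where 18.0% of all genes did), with 28 called higher. The marker gene IFIT1 is among the 28, and the lists were chosen with earlier results of these data known, so the counts are descriptions. The median difference of the list was 1.63 in the library labelled shEMPTY replicate 2, or 1.53 with undetected genes at their bounds, and between -0.08 and 0.09 in the other 8 libraries. The 2 members within the range of the others were IFITM3, with a difference of -0.04, and PNPT1, a mitochondrial RNA exonuclease, with -0.07.

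Among the IFIT genes, whose products recognise foreign RNA ends, IFIT2 was 11.65, against 6.78, 6.90 and 7.26 (lowest, median and highest) in the other 8 libraries. IFIT3 was 11.61, against 7.12, 7.29 and 7.42. IFIT5 was 7.31, against a highest value of 6.71, and was at least 1.09-fold higher, since no other library detected it. IFI27, a small mitochondrial membrane protein gene, was 11.46, against 6.68, 6.80 and 6.92, and was at least 19.4-fold higher than in libraries that did not detect it.

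The oligoadenylate synthetases, which make the 2′-5′-linked messenger that activates RNase L, were all higher. OAS2 was 11.36, against 6.83, 7.10 and 7.34. OAS3 was 11.06, against 7.35, 7.90 and 8.09, and OAS1 was 9.23, against 6.90, 7.13 and 7.29. OASL, a family member without synthetase activity that aids RIG-I, was 9.29, against 6.43, 6.59 and 6.71, at least 4.31-fold higher. Sizes depended on the probe, with differences of 1.08, 2.77 and 2.75 on the further OAS1 probes and 1.10, 1.61 and 2.76 on those of OAS2.

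RSAD2 (viperin), which makes a chain-terminating nucleotide, was 9.84, against 6.72, 6.93 and 7.15, at least 6.31-fold higher. IFI6, an endoplasmic reticulum protein that blocks flavivirus replication, was 13.00, against 9.80, 10.04 and 10.38. Other large differences were IFITM1 (3.06), which hinders fusion of virus with the cell membrane, IFI44 (2.84), the helicase-like coactivator HELZ2 (2.78), PARP9 (2.71) and its partner DTX3L (1.23), LY6E (2.35), SP110 (2.14), SAMD9 (2.13) and SAMD9L (1.96). Of the dynamin-like GTPases, MX1 was 7.95, against 6.81, 6.97 and 7.14, and was at least 1.70-fold higher than in the other libraries, none of which detected it. MX2 was detected in all libraries and differed by 0.67. The tetherin gene BST2 differed by 0.98 from an already high signal of 10.99 to 11.47 in the others. MX1 (0.99), UBA7 (0.98) and BST2 (0.98) were the genes just outside the 1 log2 limit, and CCR1 (1.01), TXNIP (1.02) and TOR1B (1.02) just inside.

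**Figure D3:**
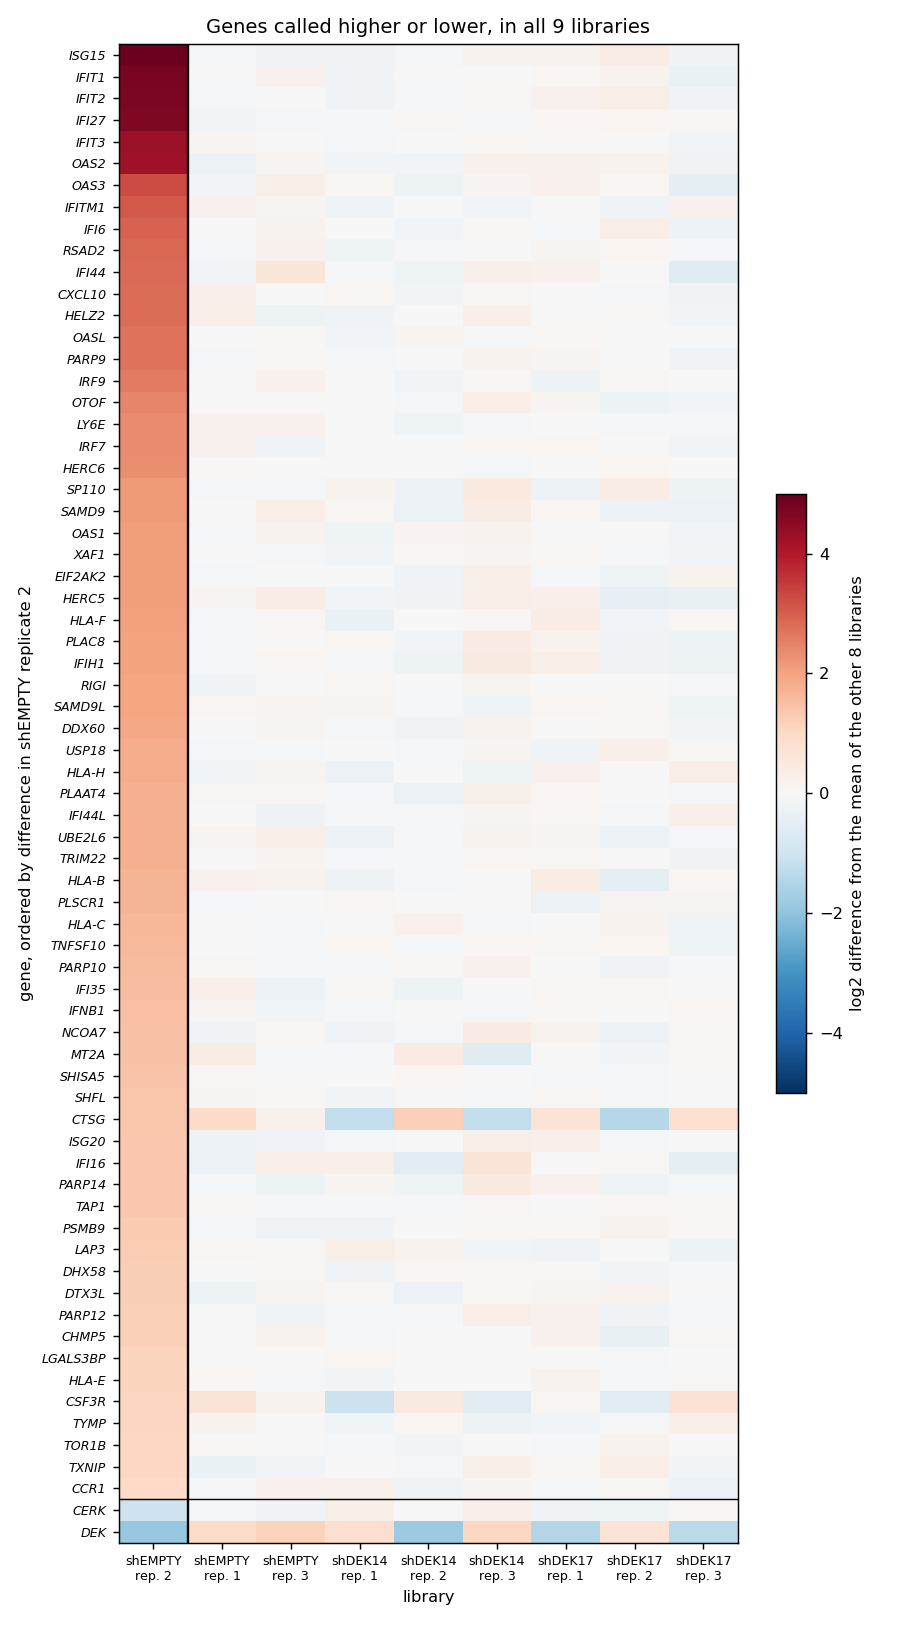
Log2 difference from the mean of the other 8 libraries for the 67 genes called higher and the 2 called lower (rows) in all 9 libraries (columns). Colour leaves white in the first column, labelled shEMPTY replicate 2, while the other columns stay pale except for CTSG, CSF3R and DEK.

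The system that attaches ISG15 to proteins was high as a whole. All 7 measured members lay above the 8 other libraries, where 18.0% of all genes did. Of the 7, 5 were called higher, where 0.334% of all genes were. The median difference was 1.87, against -0.12 to 0.16 for the list in the other 8 libraries. The marker gene ISG15 is among the 7 and among the 5. The conjugating enzyme UBE2L6 was 12.67, against 10.60, 10.94 and 11.18, and the ligase HERC5 was 10.87, against 8.40, 8.80 and 9.17. HERC6 differed by 2.32, the deconjugating protease USP18 by 1.87, the activating enzyme UBA7 by 0.98 and TRIM25 by 0.83. Modifier, enzymes and protease were thus all above the range of the others.

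Of 21 measured nucleic acid sensors and adaptors, 13 lay above the other 8 libraries (61.9%, against 18.0% of all genes). Of the 21, 6 were called higher, where 0.334% of all genes were. All 6 encode proteins that bind foreign nucleic acid or relatives of these. EIF2AK2 (PKR), a kinase activated by double-stranded RNA, was 11.74, against 9.45, 9.63 and 9.95. IFIH1 (MDA5), which senses long double-stranded RNA, was 9.89, against 7.63, 7.81 and 8.32. RIGI, which senses RNA with a 5′ triphosphate, was 9.001, against 6.86, 7.03 and 7.17. DDX60 differed by 1.95 and the DNA sensor IFI16 by 1.34, and DHX58 (LGP2), a regulator of RIG-I and MDA5, was at least 1.56-fold higher. Not called but above the range were the ligase TRIM25 (0.83), UNC93B1 (0.78), a chaperone of endosomal Toll-like receptors, and the DNA sensor AIM2 (0.39). STING1 was 11.14, against a highest value of 11.02 in the others, MAVS differed by 0.13, TBK1 by -0.22 and MYD88 by 0.34, the last 3 within the range of the other 8. The sensor CGAS was not detected in this library, and 5 of the 21 genes were detected in no library.

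Among receptors and transcription factors of the pathway, IRF9 and IRF7 were the only 2 of 20 measured genes called higher. IRF9, the DNA-binding subunit of the complex that acts at those response elements, was 9.99, against 7.14, 7.40 and 7.61. IRF7, the factor that drives the alpha interferon genes, was 9.64, against 7.12, 7.27 and 7.52. The receptor genes IFNAR1 (0.13) and IFNAR2 (0.10), the kinases JAK1 (0.16) and TYK2 (0.09), and the factors IRF1 (0.06), IRF3 (-0.18), IRF5 (0.14) and IRF8 (0.09) were within the range of the other libraries. The list median was 0.07.

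Of 21 interferon genes of types I and III on the array, IFNB1 was detected in this library and 20 were detected in no library. Among 12 negative regulators 4 lay above the range (33.3%, against 18.0% of all genes) and 0 below. USP18 was called higher. The RNA-editing enzyme ADAR (0.78) and the cytosolic Fc receptor TRIM21 (0.59) also lay above the range, while SOCS1 was not detected. TRIM22, a retroviral restriction factor, was at least 2.91-fold higher and was the only 1 of 20 such factors to be called. Of the 20, 8 lay above the range (40.0%, against 18.0% of all genes), 1 lay below, and 6 were detected in no library. APOBEC3G, a cytidine deaminase that mutates retroviral DNA, differed by 0.77 and TRIM5 by 0.51, both above the range, and APOBEC3B was below it with -0.25.

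Genes of MHC class I presentation formed a second block, with 12 of 21 measured members above the other 8 libraries (57.1%, against 18.0% of all genes). Of the 21, 6 were called higher, where 0.334% of all genes were. HLA-F was 11.45, against 9.05, 9.40 and 9.75. HLA-B was 12.62, against 10.43, 10.96 and 11.27, and HLA-C and HLA-E differed by 1.64 and 1.10. Class I genes are near-identical in long stretches, so their probes may share signal. TAP1, a subunit of the peptide transporter, was 10.51, against 9.08, 9.20 and 9.26, and PSMB9, an immunoproteasome subunit, was 9.76, against 8.25, 8.48 and 8.63. B2M (0.48), the proteasome activators PSME1 (0.46) and PSME2 (0.82) and PSMB8 (0.70) were above the range, while TAP2 (0.20), TAPBP (0.14) and PSMB10 (-0.04) were within it.

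Of 12 measured MHC class II genes 0 were called, 3 lay above the range (25.0%, against 18.0% of all genes) and 6 were detected in no library. Their median difference was 0.16, against -0.06 to 0.03 in the other libraries, with HLA-DRB1 at 0.26 above the range and HLA-DRA at -0.26 within it. Among 15 genes typical of the interferon-gamma response 0 were called, the GTPase GBP5 being the highest with 0.91, while WARS1 (0.37) stayed within the range. Of 16 chemokines CXCL10 alone was called higher, and CCL2 (0.35), CXCL8 (0.24) and CCL5 (0.20) were within the range.

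**Figure D4:**
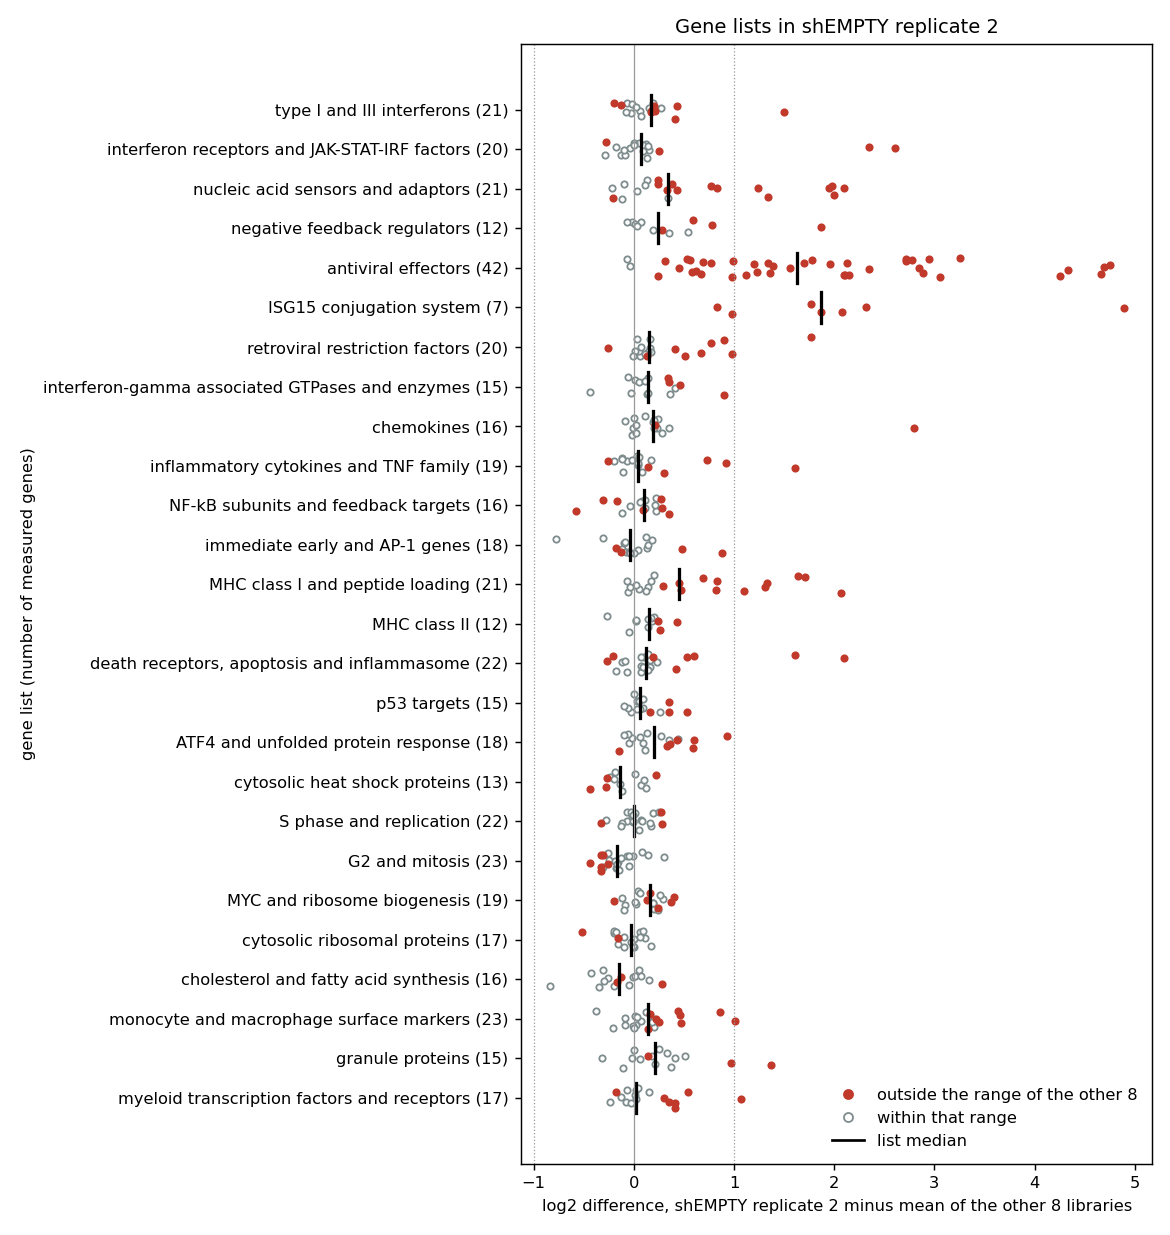
Log2 difference of the library labelled shEMPTY replicate 2 from the mean of the other 8 libraries for each measured gene (points) of 26 lists, red where outside the range of the other 8, with the list median as a bar. The antiviral effector and ISG15 conjugation lists have medians of 1.63 and 1.87, those of MHC class I, of nucleic acid sensors and adaptors and of negative feedback regulators are 0.46, 0.34 and 0.24, and the medians of the other lists lie between -0.17 and 0.21.

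Many inflammatory genes were below detection, with 9 of 19 cytokines and TNF family members and 5 of 16 NF-kB subunits and targets detected in no library. Of the 19 cytokines and TNF family members, TNFSF10 (TRAIL), a death receptor ligand, was called higher, with 8.45 against 6.63, 6.87 and 6.95, at least 2.40-fold. TNFSF13B (BAFF), with 0.92, and IL1RN, the interleukin-1 receptor antagonist, with 0.73, were above the range. In all 5 of the 19 lay above the range (26.3%, against 18.0% of all genes), and TNF and IL1B were not detected in this library. Of 16 NF-kB subunits and targets 0 were called, 4 lay above the range (25.0%, against 18.0% of all genes) and 3 below (against 6.14% of all genes). Among them were TNIP1 (0.35) and TNFAIP3 (0.28) above and SOD2 (-0.57) below. Of 18 immediate early genes 0 were called, with ATF3, a stress-induced factor, highest at 0.88.

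Of 22 genes of apoptosis and the inflammasome, the 2 called higher were TNFSF10 and XAF1, an antagonist of XIAP, which differed by 2.10 and also belongs to the antiviral list. BAK1 (0.61), PMAIP1 (0.53) and CASP1 (0.42) were above the range. Of the 22 genes, 6 lay above it (27.3%, against 18.0% of all genes) and 2 below (against 6.14% of all genes). None of 15 p53 targets and 18 genes of the ATF4 and unfolded protein responses was called. Above the range lay 4 of the 15 (26.7%) and 6 of the 18 (33.3%), against 18.0% of all genes. Below it lay 0 and 1, against 6.14% of all genes. DDIT4 (0.93), PPP1R15A (0.61) and HSPA5 (0.59) were among those above. Heat shock genes had a list median of -0.14, within the -0.27 to 0.15 of the other libraries.

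Genes of G2 and mitosis were slightly low. Of 23, all detected in every library, 6 lay below the other 8 libraries, where 6.14% of all genes did. None lay above them, where 18.0% of all genes did, and 0 were called. The list median was -0.17 in the library labelled shEMPTY replicate 2, against -0.10 to 0.05 in the other 8. CDC25C, a phosphatase that activates CDK1, had the largest difference with -0.44, followed by CENPF (-0.33), ESPL1 (-0.33) and BUB1 (-0.32). S phase genes had a median of -0.0023, within the range of the others, and cytosolic ribosomal protein genes had -0.02. Cholesterol and fatty acid synthesis genes had -0.15, against -0.10 to 0.10. Of these 16 genes, 2 lay below the range and 1 above, against 6.14% and 18.0% of all genes.

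Myeloid genes were partly within and partly above the range of the other libraries. Of 23 monocyte and macrophage surface markers 9 lay above it (39.1%, against 18.0% of all genes), with a list median of 0.14 against -0.07 to 0.02 in the other 8 libraries. Only 12 of these 23 were detected in this library and 7 were detected in no library, so part of this is background signal. Of 17 myeloid transcription factors and receptors 6 lay above (35.3%, against 18.0% of all genes) and 1 below. Their list median was 0.03, within the -0.12 to 0.07 of the other 8 libraries. Of 15 granule protein genes 3 lay above, a share close to that of all genes. The granule list median was 0.21, within the -0.26 to 0.32 of the other 8 libraries. SPI1 (PU.1), the master factor of myeloid cells, differed by 0.01, CEBPA by 0.02, MPO by 0.33 and LYZ by 0.37, all within the range of the other libraries and detected. CD14 was not detected, and CD33 was not analysed here. Of the myeloid genes 3 were called higher. CCR1, a chemokine receptor, was 8.20, against 6.92, 7.19 and 7.42. CTSG, the granule protease cathepsin G, was 10.24, against 7.46, 9.31 and 10.07, and CSF3R, the receptor for G-CSF, was 10.59, against 8.43, 9.66 and 10.24. CTSG and CSF3R varied more between the other libraries (SD of 1.11 and 0.65) than any other called gene but DEK, so the library labelled shEMPTY replicate 2 was only slightly above the next one.

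Markers of other cell types were near or below detection, with few exceptions. Of 6 plasmacytoid dendritic cell markers, the cells known for the highest interferon output, 5 were detected in no library, and TCF4, detected in all, differed by -0.38 within the range. Of 6 T and NK cell markers NKG7 alone was detected in this library (0.41, above the range). Of 3 measured B cell markers CD79A was detected, with -0.21, and 4 erythroid and megakaryocyte and 4 epithelial markers were not detected in it. The median differences of these 5 lists were 0.04, 0.14, 0.01, 0.14 and 0.19, and 0 of their genes were called.

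Of the 67 genes, 54 belonged to the lists and 13 did not; the 13 are named after their values were seen. OTOF, otoferlin, known for calcium-triggered membrane fusion in hair cells, was 10.12, against 7.41, 7.66 and 8.03 in the other 8 libraries. PLAC8 differed by 2.01, the class I pseudogene HLA-H by 1.84, the acyltransferase PLAAT4 by 1.78, the ADP-ribosyltransferase PARP10 by 1.58 and the metallothionein MT2A by 1.46. NCOA7 (1.46), SHISA5 (1.43), LAP3 (1.29), CHMP5 (1.20), TYMP (1.07), TOR1B (1.02) and TXNIP (1.02) completed the set. For 22 of the 67 genes there were 35 further probes, of which 30 lay above the other 8 libraries and 5 did not (OTOF, IRF7, HLA-C, CSF3R and TYMP, 1 probe each). Those 5 probes were not detected in this library. The size depended on the probe, as IFI44L differed by 1.78 on the probe used and by 5.37 on its other probe, and IFI6 by 2.95 and 5.10. Differences were smaller on further probes of IFIT1 (0.82, against 4.75 on the probe used) and IFIT3 (1.18 and 3.89, against 4.34). The same held for OASL (0.61, against 2.71) and SP110 (2.11, 0.40 and 1.94, against 2.14). Of 27 further probes detected in this library, 21 were at least 1 log2 unit higher.

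On the low side, DEK was 8.36, against 8.47, 11.04 and 11.42 in the other 8 libraries, a difference of -1.91. It lay only 0.36 below the mean of the 3 other low-DEK libraries, so its call rests on the 5 libraries with high DEK. CERK, ceramide kinase, was 8.08, against 8.92, 9.11 and 9.41, a difference of -1.04 that was -1.02 against the low-DEK libraries. It was -0.92 against the 2 other shEMPTY libraries and -0.96 against the 2 others numbered replicate 2. Both fall short of the 1 log2 limit, so the CERK call is marginal. ACO1, cytosolic aconitase and an iron-responsive RNA-binding protein, was 10.11, against 10.84, 11.08 and 11.43, and PALLD, an actin-bundling protein, was 7.83, against 8.38, 8.70 and 9.21. Neither reached the 1 log2 limit against all 8. The next largest negative differences, in DANCR, PDK3, POLR1F, CLTC, NCAPD2, AK3, TNRC6B, SEC61A2, AP1S2, HES6 and ZNF106, were between -0.81 and -0.59.

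The library labelled shEMPTY replicate 2 was also set against the 3 other libraries with raw DEK below 1000. The antiviral list median was 1.65 in that comparison, and 64 of the 67 genes remained at least 1 log2 unit higher. The 3 that did not were CTSG (0.46), CSF3R (0.64) and TYMP (0.97). The 67 genes were called against 8 libraries that include these low-DEK libraries, so their retention is not an independent check. In the 3 other low-DEK libraries the antiviral list had medians of -0.05, 0.09 and -0.05, and in the 5 libraries with high DEK between -0.08 and 0.05, so the 2 sets overlapped. IFIT1 was 7.43, 7.58 and 7.13 in the low-DEK libraries and ISG15 was 8.42, 8.68 and 8.34, each inside the range given by the libraries with high DEK or, for IFIT1 in shDEK17 replicate 3, just below it. Of the 4 libraries with a low DEK signal, 1 had high interferon-response genes, and it is the library that was selected on IFNB1. Whether the DEK level had a part in this was not tested.

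**Figure D5:**
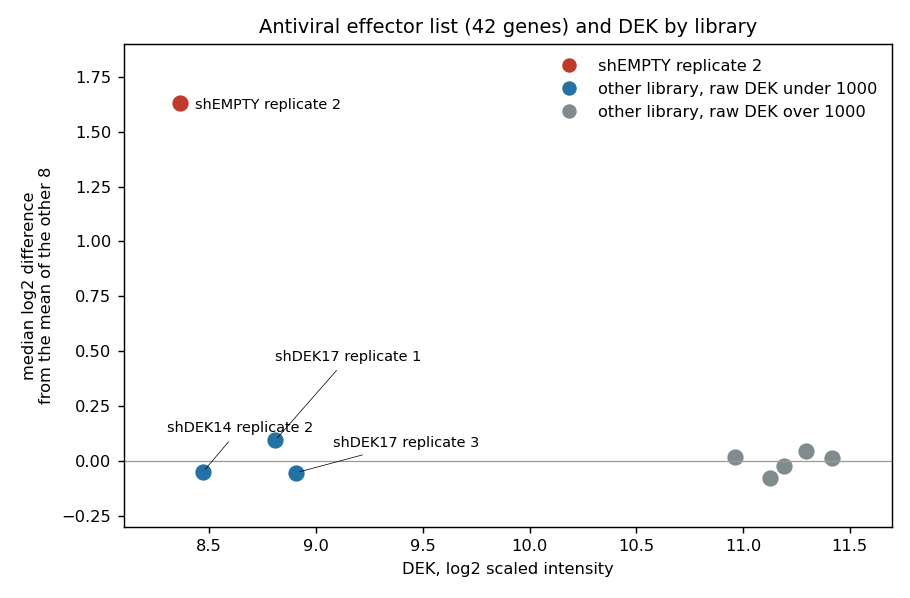
Median log2 difference of the 42 antiviral effector genes from the mean of the other 8 libraries (vertical) against log2 scaled DEK intensity (horizontal), 1 point per library. The library labelled shEMPTY replicate 2 lies at 1.63, and the 3 other low-DEK libraries lie between -0.05 and 0.09 with those of high DEK.

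CTSG was high in the library labelled shEMPTY replicate 2 and in others too. Its value was 10.24 there, close to the 10.07, 9.54 and 9.72 of the 3 other low-DEK libraries. The libraries labelled shEMPTY replicate 1 and shEMPTY replicate 3 had 9.84 and 9.08, whereas shDEK14 replicates 1 and 3 and shDEK17 replicate 2 had 7.62, 7.63 and 7.46. CSF3R followed the same split, with 8.43, 8.98 and 9.004 in the last 3 libraries and 9.61 or more in all others.

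The labels also number the arrays by experiment. Against the 2 other libraries numbered 2 (shDEK14 and shDEK17), 76 genes were higher, 66 of them among the 67. Against the 2 other libraries labelled shEMPTY, 65 genes were higher, 62 of them among the 67. The antiviral list median was 1.64 and 1.66 in these comparisons. The compared libraries were among those that defined the 67 genes, so the overlaps are not independent checks.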

How the data were processed

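Total RNA of 9 U937 cultures (3 groups of 3) was labelled with biotin and hybridised to Illumina HumanHT-12 v4 bead arrays. The authors deposited raw probe intensity for 47323 probes and a detection p-value per probe and array, in steps of 1 in 770 against negative control beads. They also deposited a table of scaled values, which were the raw intensities times 1 factor per array (0.89 to 1.12), giving a mean of 406.2 on each array. This table is linear, neither centred nor background-subtracted, and has no direction to settle. Its medians were 119.3 in the library labelled shEMPTY replicate 2, 116.3 and 115.5 in shEMPTY replicates 1 and 3, 110.1, 115.1 and 113.0 in shDEK14 and 119.1, 117.7 and 112.3 in shDEK17. The sources used here do not give the software behind the scaling.

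Log2 of the deposited scaled intensities was used. Of the probes, 30113 had 1 gene symbol in the platform annotation, 8 had several and 17202 had none listed, and 30074 were matched to RefSeq (GRCh38.p14) by gene identifier. The probe with the highest mean over the 9 arrays stood for each of 20046 genes. A gene was called when the library labelled shEMPTY replicate 2 lay outside the range of the other 8 and at least 1 log2 unit from their mean. No p-value was computed, and the number of arrays limits the precision. Named genes were DEK, the 4 markers, the 15 largest differences in each direction, and members of 31 gene lists (503 of 532 entries measured). The members and lists were chosen with earlier results of these data known. Alternatives changed scaling, background correction (limma 3.58.1 in R 4.3.3), filter, probe choice, limit and compared libraries. Scripts ran in Python 3.11.15.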

Additional observations from a re-analysis of the deposited data

How the results depend on the processing

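No paired analysis was possible because 1 library stands on one side and the comparison gives no test. The count of 67 higher genes was 128 with neqc (all 67 included, and 25 lower genes in place of 2), 38 among genes detected in all of the other 8 libraries, 146 with a limit of 1.5-fold and 3601 with none, and the count of lower genes was 18 and 1231 with these limits and 1 against the 2 other libraries numbered 2. With normexp and an offset of 50, 89 genes were higher, with the median of all genes at 0.15. The antiviral median of 1.63 was 2.61 with neqc, 2.17 with normexp, 2.03 and 2.10 among genes detected in at least 1 and in all of the other 8 libraries, 1.48 with probes chosen on the other 8 and 1.38 over all probes. Leaving out each of the other 8 libraries in turn gave 66 to 69 higher genes, 2 to 3 lower genes and an antiviral median of 1.61 to 1.65. For IFNB1, CXCL10, IFIT1, ISG15 and DEK, 0 of 80 alternative values changed direction and 9 moved by more than the SD of the other 8 libraries. Of these, 8 were larger differences of the 4 markers after background correction, and the other was DEK against the 3 other low-DEK libraries (-0.36).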

Other observations

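Of 17210 probes with no gene symbol listed here or with several, 12 were above all 8 other libraries and at least 1 log2 unit above their mean in the library labelled shEMPTY replicate 2, and 0 were below by the same rule. These probes were not named.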
